A study of Mus musculus with 12 samples.

Results

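The 5 genes of cell-surface proteolysis and coagulation initiation described here were measured in cultured mouse pancreatic cancer cells, namely Plau, Plaur, Plat, Serpinb2 and F3. Every probe set that the array annotation gave exactly 1 symbol, and that symbol was one of these 5, was taken, which gave 7 probe sets for the 5 genes among 45101 probe sets (34945 with 1 symbol, for 18193 genes). Plau and Plat had 2 probe sets each and the other genes had 1. RNA was measured on Affymetrix mouse expression arrays in 4 groups of 3 arrays. The mt-CCs were primary cells of a pancreatic tumor from the Pdx1-Cre model, with the p53 allele R172H. The p53-null fl-CCs came from a tumor of the same model with a floxed p53 allele, and they were the parent of both transfected groups. The transfected groups were fl-CCs + p53 R175H, which carried the human mutant, and fl-CCs + EV, which carried the empty vector, both grown with G418 at 0.6 mg/ml. All groups thus shared the Cre driver, which acts in the pancreatic lineage. Each genotype was represented by 1 line, grown in triplicate, so that every test measured the spread between cultures of a line and not between tumors.

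The plasminogen activation system turns the zymogen plasminogen into plasmin, a protease that dissolves fibrin and cleaves matrix proteins. Plau encodes the urokinase-type activator, which works at the cell surface when bound to its receptor, the product of Plaur. Plat encodes the tissue-type activator, best known for its action on fibrin clots. Serpinb2 encodes plasminogen activator inhibitor 2, a clade B serpin. F3 encodes tissue factor, the membrane receptor of coagulation factor VII and the starting point of the extrinsic pathway, and it is a known product of many carcinoma cells. In pancreatic cancer, urokinase and its receptor are known for a role in invasion, and tissue factor for a role in the clotting that accompanies the disease.

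In the RefSeq annotation of GRCm38.p6, Plau lies on chromosome 14 (chr14:20836662-20843388), Plaur on chromosome 7 (chr7:24460937-24475970), Plat on chromosome 8 (chr8:22757722-22782848), Serpinb2 on chromosome 1 (chr1:107500892-107525600) and F3 on chromosome 3 (chr3:121723537-121735052). The deposited table names no build, so these positions describe the genes and not the probes. Promoter windows of RefSeq were matched for 3 of the 5 genes, and the 250 bases before the start site are shown for F3, which of the 5 genes had the largest difference between the transfected groups, and for Plaur, the receptor. Both lie on the plus strand and are written 5′ to 3′, at chr3:121723287-121723536 for F3 and chr7:24462233-24462482 for Plaur. The F3 window ends at the base before the gene as placed above. The Plaur window lies inside the gene as placed above, after its first base, as do both Serpinb2 windows, so their start sites are internal ones. The capitals mark matches to the AP-1 motif TGANTCA, the recognition site of Fos and Jun proteins.
F3: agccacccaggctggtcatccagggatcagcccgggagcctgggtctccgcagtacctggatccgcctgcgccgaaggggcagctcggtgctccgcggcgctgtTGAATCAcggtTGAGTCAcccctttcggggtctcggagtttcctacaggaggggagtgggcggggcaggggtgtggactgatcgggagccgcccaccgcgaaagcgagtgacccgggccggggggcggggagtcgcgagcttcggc
Plaur: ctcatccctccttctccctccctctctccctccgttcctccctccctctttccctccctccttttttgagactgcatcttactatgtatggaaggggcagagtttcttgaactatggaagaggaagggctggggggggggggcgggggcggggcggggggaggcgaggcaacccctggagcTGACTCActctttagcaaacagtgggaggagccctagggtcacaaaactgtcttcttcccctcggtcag
The motifs were searched on both strands. F3 held 2 AP-1 matches, the first at 146 to 140 and the other at 135 to 129 bases before the start site, and Plaur held 1, at 69 to 63 bases. Both Serpinb2 windows held the same single AP-1 match. Of 32851 mouse windows of this length, 6.75% held at least 1 AP-1 match. The GC box GGGCGG, bound by Sp1-type factors, matched 3 times in F3 and 3 times in Plaur, where a pair of the matches shared 1 base, and 32.7% of all windows held it. Neither AP-1 match of F3 nor that of Plaur overlapped a GC box. The NF-kB consensus GGGRNNYYCC (R is A or G, Y is C or T, N is any base) had no match in these windows, against 7.25% of all windows. Sites that depart from these letters were not searched, so an NF-kB site of another form can be present. A match is a run of letters and not a measured binding site.

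**Figure D1:**
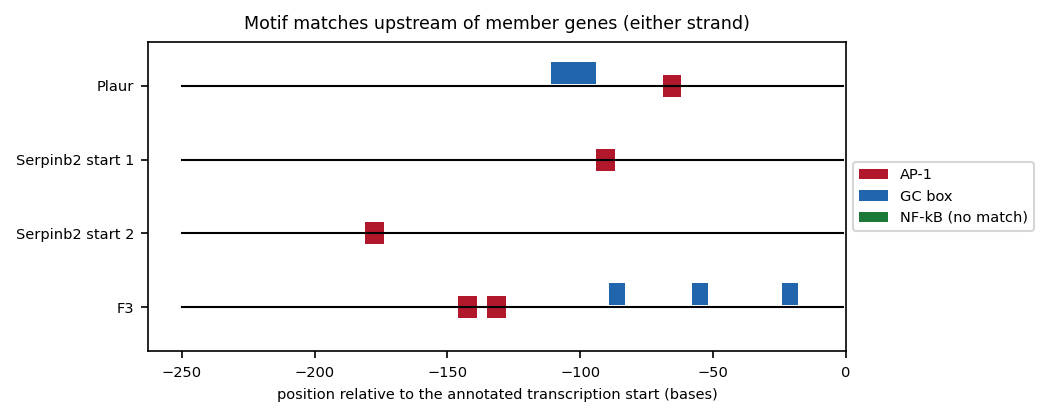
Positions of motif matches in the 250 bases before the RefSeq start sites of F3, Plaur and Serpinb2 (x axis, bases from the start site, with bars for matches on either strand). The NF-kB consensus as searched had no match. F3 has 2 AP-1 and 3 GC box matches, Plaur has 1 and 3, and each Serpinb2 window has 1 AP-1 match. The Plaur and Serpinb2 windows lie inside the annotated genes, after the first base of each.

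Values are log2 signals normalized by RMA, on which a difference of 1 is a doubling. A value under 5 was taken as near background. Values ranged over 1.713 to 14.64 with a median of 5.592 in every array. Correlations were 0.994 to 0.9962 between arrays of a group and 0.9594 to 0.9903 between groups, and no pair of arrays was identical. Of 4 epithelial keratins, 3 were bright in every group, with group means of Krt8 at 12.94 to 13.31, of Krt18 at 13.40 to 13.75 and of Krt19 at 13.24 to 13.68. Epcam, an epithelial adhesion protein, averaged 6.88 in mt-CCs, 9.57 in fl-CCs + p53 R175H, 9.75 in fl-CCs + EV and 9.78 in fl-CCs, and Cdh1, the epithelial cadherin, averaged 10.01 in mt-CCs, 12.48 in fl-CCs + p53 R175H, 12.21 in fl-CCs + EV and 12.25 in fl-CCs. The fourth keratin, Krt7, was lower in mt-CCs, at 8.52, against 12.96 in fl-CCs (difference -4.45 ± 0.10, adjusted p = 2.02e-11, limma), and averaged 12.02 in fl-CCs + p53 R175H and 13.06 in fl-CCs + EV. Cldn4 and Esrp1 lay near background in all groups. Trp53 was not analysed here.

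Between mt-CCs and fl-CCs, the comparison of mutant with deleted p53 in tumor lines, both Plau probe sets and F3 were higher in mt-CCs, and Plaur and both Plat probe sets were lower. Of the 7 member probe sets, 3 were called higher and 3 lower at an adjusted p of 0.05 or less (limma, adjusted over 45037 probe sets), where 30.7% of all probe sets were called (15.4% higher and 15.3% lower). The median difference was 0.19 over the 7 probe sets and -0.02 over all. In all 6 called probe sets the 3 arrays of mt-CCs lay apart from the 3 of fl-CCs, as did 41.8% of all probe sets.

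**Figure D2:**
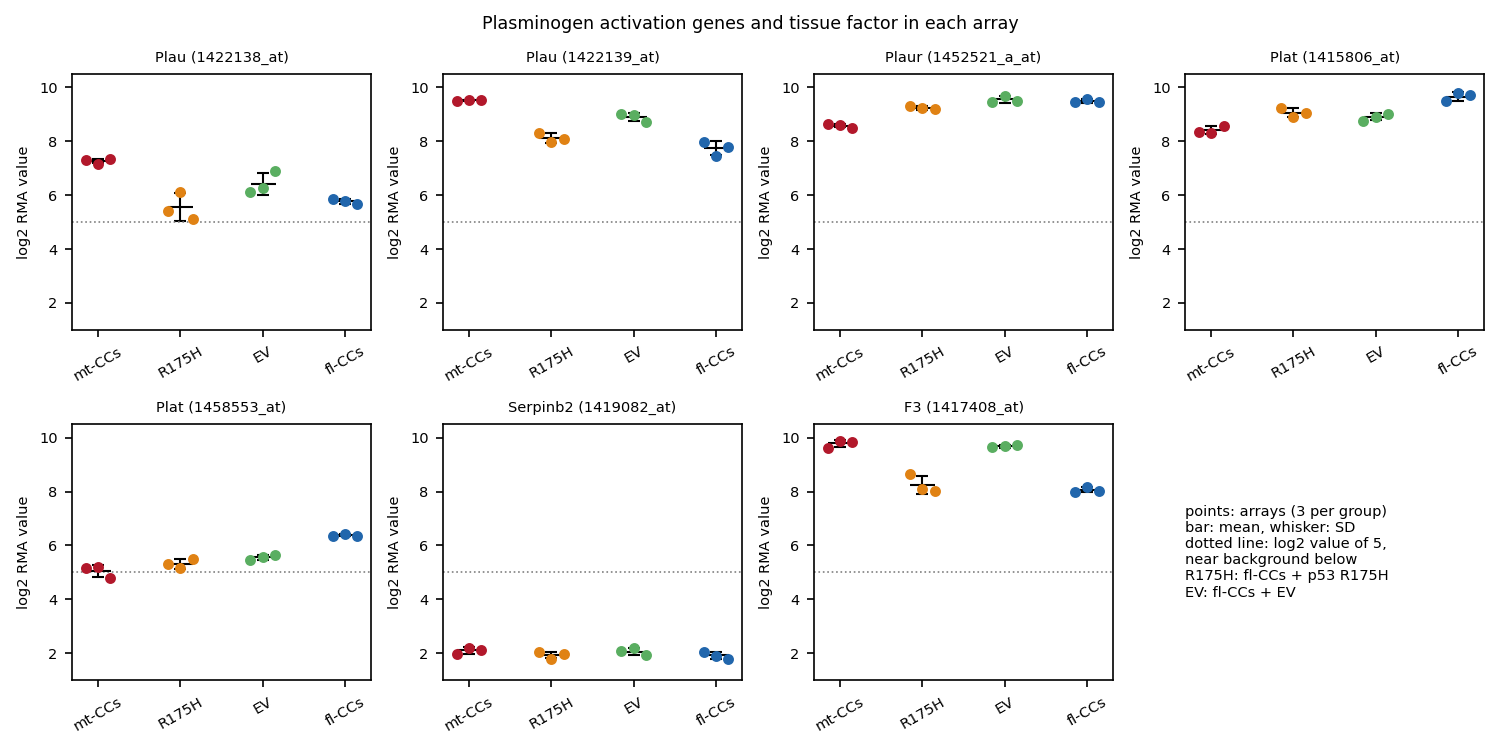
Log2 RMA values of the 7 member probe sets array by array in the 4 groups (each point is 1 array, bars give the mean with its SD, dotted line, the near-background level of 5). F3 is high in mt-CCs and fl-CCs + EV and low in fl-CCs + p53 R175H and fl-CCs, and all 12 Serpinb2 values lie between 1.79 and 2.20.

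Urokinase-type activator was highest in mt-CCs. The brighter Plau probe set, 1422139_at, read 9.50, 9.53 and 9.54 in mt-CCs, 8.31, 7.96 and 8.08 in fl-CCs + p53 R175H, 9.003, 8.99 and 8.71 in fl-CCs + EV and 7.98, 7.47 and 7.77 in fl-CCs. The mt-CC arrays stood above all other arrays and the EV arrays above those of fl-CCs + p53 R175H and fl-CCs. The mt-CCs minus fl-CCs difference was 1.78 ± 0.14 (SE, n = 3 arrays per group, limma adjusted p = 7.68e-07), a 3.44-fold higher signal. At the dimmer probe set, 1422138_at, the arrays read 7.29, 7.18 and 7.34 in mt-CCs, 5.40, 6.13 and 5.13 in fl-CCs + p53 R175H, 6.10, 6.26 and 6.89 in fl-CCs + EV and 5.84, 5.80 and 5.67 in fl-CCs. Here too mt-CCs lay above every other array, and the fl-CCs + p53 R175H arrays overlapped with those of EV and fl-CCs. The mt-CCs minus fl-CCs difference at this probe set was 1.50 ± 0.24 (adjusted p = 0.000375, limma).

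Tissue-type activator ran the other way. The brighter Plat probe set, 1415806_at, read 8.35, 8.33 and 8.59 in mt-CCs, 9.23, 8.90 and 9.06 in fl-CCs + p53 R175H, 8.77, 8.91 and 9.03 in fl-CCs + EV and 9.49, 9.78 and 9.71 in fl-CCs. The fl-CCs were above and the mt-CCs below all other arrays, and the transfected groups overlapped. The difference of mt-CCs minus fl-CCs was -1.24 ± 0.12 (adjusted p = 6.21e-06, limma), a 2.36-fold lower signal in mt-CCs. The second probe set, 1458553_at, read 5.16, 5.19 and 4.79 in mt-CCs, 5.29, 5.15 and 5.49 in fl-CCs + p53 R175H, 5.45, 5.57 and 5.64 in fl-CCs + EV and 6.35, 6.41 and 6.36 in fl-CCs. Only its fl-CC arrays stood clear of the near-background level by more than 1, and 1 of the 3 mt-CC arrays was under it. Its mt-CCs minus fl-CCs difference was -1.32 ± 0.12 (adjusted p = 3.91e-06, limma).

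The urokinase receptor was lower in mt-CCs, while its ligand Plau was higher there. Plaur (1452521_a_at) read 8.64, 8.61 and 8.51 in mt-CCs, 9.33, 9.23 and 9.19 in fl-CCs + p53 R175H, 9.46, 9.68 and 9.51 in fl-CCs + EV and 9.46, 9.59 and 9.47 in fl-CCs. The mt-CC arrays were below all others, and those of fl-CCs + p53 R175H lay between mt-CCs and the remaining pair of groups, which overlapped. The difference of mt-CCs minus fl-CCs was -0.92 ± 0.09 (adjusted p = 5.67e-06, limma), a 1.89-fold lower signal. RNA was extracted from whole cultures, so that fewer cells with a transcript and less transcript per cell cannot be told apart.

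Serpinb2, the inhibitor, was near background in every array, with values between 1.79 and 2.20 over the 12 arrays. No difference is given for it, and no comparison passed the test (adjusted p = 0.221 for mt-CCs minus fl-CCs, 0.471 for p53 R175H minus EV and 0.468 for EV minus fl-CCs, limma).

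Tissue factor showed the clearest grouping. F3 (1417408_at) read 9.63, 9.89 and 9.84 in mt-CCs, 8.64, 8.11 and 8.01 in fl-CCs + p53 R175H, 9.64, 9.68 and 9.74 in fl-CCs + EV and 8.002, 8.17 and 8.03 in fl-CCs. The arrays fell into a high pair of groups, mt-CCs and fl-CCs + EV, and a low pair, fl-CCs + p53 R175H and fl-CCs, with no array between 8.64 and 9.63. The mt-CCs exceeded fl-CCs by 1.73 ± 0.14 (95% interval 1.41 to 2.04, adjusted p = 1.73e-06, limma), which is 3.31-fold.

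With human p53 R175H in the p53-null cells, set against their vector control, no member probe set rose and 4 of 7 fell, namely F3, both Plau probe sets and Plaur, where 20.3% of all probe sets were called (10.2% higher and 10.2% lower). The median difference over the 7 was -0.30, against -0.01 over all probe sets. F3 fell by 1.43 ± 0.14 on the log2 scale (95% interval of the difference -1.75 to -1.12, n = 3 arrays per group, adjusted p = 2.96e-05, limma), a 2.70-fold lower signal. Plau fell by 0.78 ± 0.14 at 1422139_at (adjusted p = 0.00158, limma) and by 0.87 ± 0.24 at 1422138_at (adjusted p = 0.0221, limma), where the groups overlapped. Plaur fell by 0.30 ± 0.09 (adjusted p = 0.0292, limma), a 1.23-fold difference with no overlap of the arrays. Plat did not pass at either probe set, with differences of 0.16 (95% interval -0.10 to 0.42) and -0.24 (95% interval -0.51 to 0.02). The Plau call at 1422138_at was lost without EV replicate 3 (adjusted p = 0.0866, limma), without p53 R175H replicate 1 (0.0772) or without p53 R175H replicate 3 (0.0923). The Plaur call was lost without EV replicate 2 (adjusted p = 0.122, limma), EV replicate 3 (0.0547), p53 R175H replicate 2 (0.0846) or p53 R175H replicate 3 (0.0975), whereas F3 and Plau at 1422139_at kept their calls without any single array.

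The empty vector cells differed from their untransfected parent in F3, Plau and Plat. F3 was 1.62 ± 0.14 higher in fl-CCs + EV than in fl-CCs (95% interval 1.30 to 1.94, adjusted p = 2.42e-05, limma), which is 3.07-fold. Plau at 1422139_at was 1.16 ± 0.14 higher (adjusted p = 0.000193, limma), a 2.24-fold signal, and at 1422138_at the difference of 0.65 (95% interval 0.13 to 1.17) did not pass (adjusted p = 0.105), although it did without p53 R175H replicate 2 (adjusted p = 0.037, limma). Without EV replicate 3 this difference was 0.41 (adjusted p = 0.337, limma), and the adjusted p ran from 0.037 to 0.337 over its alternatives. Plat was lower in fl-CCs + EV, with differences of -0.76 ± 0.12 at 1415806_at (adjusted p = 0.00153, limma) and -0.82 ± 0.12 at 1458553_at (adjusted p = 0.000974, limma). Plaur differed by 0.05 (95% interval -0.14 to 0.24). Thus 2 of 7 probe sets were called higher and 2 lower, where 12.1% of all probe sets were called (6.45% higher and 5.66% lower). This comparison shares the EV arrays with that of p53 R175H and the fl-CC arrays with that of mt-CCs, so the 3 sets of differences are not independent of each other.

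**Figure D3:**
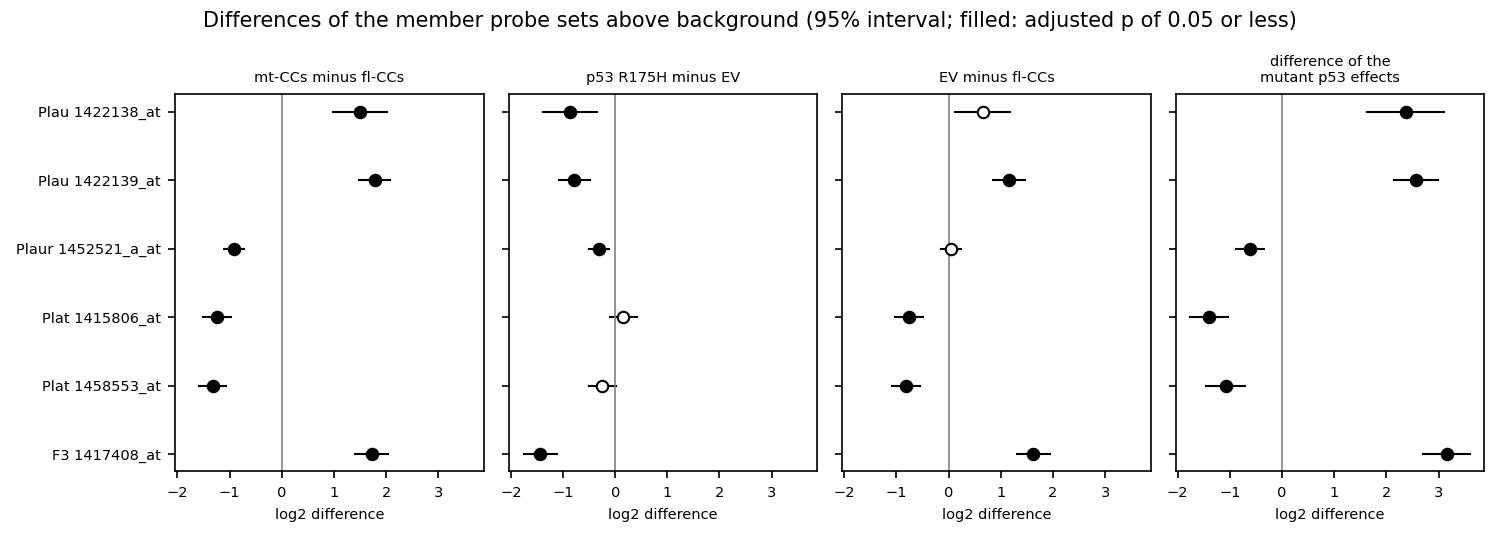
Log2 differences of the 6 member probe sets above background in 4 panels, for mt-CCs against fl-CCs, for p53 R175H against EV, for EV against untransfected fl-CCs and for the first minus the second of these (points, differences; bars, 95% intervals; filled where called). F3 lies at 1.73, -1.43, 1.62 and 3.16, and Plat 1415806_at at -1.24, 0.16, -0.76 and -1.40.

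The differences that went with mutant p53, termed effects here, were compared between the tumor lines and the transfected cells. They differed for 6 of the 7 probe sets, where 26.8% of all were called. In the tumor lines the p53 allele and the line cannot be told apart, as each genotype was 1 line. The mutant was R172H there, and human R175H under G418 in the transfected cells. The labels give no separate transfections, so in the transfected cells the mutant and the transfected population cannot be told apart either. The difference between the effects, (mt-CCs minus fl-CCs) minus (p53 R175H minus EV), was 3.16 ± 0.21 for F3 (95% interval 2.71 to 3.61, adjusted p = 2.57e-07, limma). It was 2.57 ± 0.19 for Plau at 1422139_at (adjusted p = 9.99e-07, limma) and 2.37 ± 0.34 at 1422138_at (adjusted p = 0.000208). For F3 and Plau the transfected mutant was below its control and the tumor line with mutant p53 was above the null line. For Plaur both differences were negative and that of the tumor lines was the larger in size, with a difference between them of -0.62 ± 0.12 (adjusted p = 0.00267, limma). For Plat it was -1.40 ± 0.17 at 1415806_at (adjusted p = 6.01e-05, limma) and -1.08 ± 0.17 at 1458553_at (adjusted p = 0.000498).

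The groups were also set in order by their means, with the tests of the 3 other pairs of groups, in which 15% (p53 R175H minus fl-CCs), 33.1% (mt-CCs minus p53 R175H) and 33% (mt-CCs minus EV) of all probe sets were called. The order was mt-CCs, fl-CCs + EV, fl-CCs + p53 R175H and fl-CCs for F3. The mt-CCs did not pass against EV (difference 0.10, 95% interval -0.21 to 0.42, adjusted p = 0.644, limma), nor p53 R175H against fl-CCs (0.19, 95% interval -0.13 to 0.50, adjusted p = 0.47). Plau at 1422139_at kept the same order, with mt-CCs above EV by 0.62 (adjusted p = 0.00363, limma) and p53 R175H against fl-CCs at 0.38 (adjusted p = 0.0929). At 1422138_at the last 2 groups changed places, with means of 5.55 in p53 R175H and 5.77 in fl-CCs, a difference that did not pass (-0.22, 95% interval -0.74 to 0.30, adjusted p = 0.634, limma). Plat was highest in fl-CCs and lowest in mt-CCs, and the transfected groups between them were not separated by the test. At 1458553_at the mt-CCs did not pass against fl-CCs + p53 R175H either (difference -0.26, adjusted p = 0.129, limma). For Plaur the EV and fl-CC means were 9.55 and 9.51, p53 R175H at 9.25 did not pass against fl-CCs (adjusted p = 0.0752, limma), and mt-CCs at 8.59 were below each of the other groups.

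Other genes of the system were counted on 5 lists of 60 genes, of which 52 had a probe set with 1 symbol. Where a gene had several probe sets, that of the smallest adjusted p stood for it, which favors calls in the lists and in all genes alike. Of 11 genes for plasminogen, its receptors and related proteases, 2 were higher and 3 lower in mt-CCs than in fl-CCs, while 22.2% of all 18193 genes were higher and 21.1% lower. Plgrkt, a plasminogen receptor, averaged 9.31 in mt-CCs and 10.07 in fl-CCs (difference -0.75 ± 0.09, adjusted p = 3.83e-05, limma). Hpn, the membrane protease hepsin, fell by 1.15 ± 0.16 (adjusted p = 0.000104, limma). S100a10, which binds plasminogen together with annexin A2, rose by 0.53 ± 0.09 at one probe set (adjusted p = 0.00049) and had 0.44 and 0.02 at the others, which did not pass. Lrp1, an endocytic receptor that clears protease and inhibitor complexes, rose by 0.71 ± 0.13 (adjusted p = 0.0014), and by 0.53 at another probe set, which did not pass (adjusted p = 0.159). In fl-CCs + p53 R175H against EV, 0 of the 11 rose and 2 fell, Hpn by 0.70 ± 0.16 (adjusted p = 0.00696, limma) and Anxa2 by 0.26 ± 0.08 (adjusted p = 0.0318, limma), where 15.3% of all genes were higher and 15.1% lower.

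Of the 5 measured inhibitors of plasminogen activators and plasmin, 0 were higher and 2 lower in mt-CCs than in fl-CCs (22.2% and 21.1% of all genes), and 1 was higher and 1 lower in fl-CCs + p53 R175H than in EV (15.3% and 15.1% of all genes). Serpini1, neuroserpin, an inhibitor of tissue-type activator in the nervous system, averaged 5.97 ± 0.46 in mt-CCs and 9.66 ± 0.12 in fl-CCs (SD, n = 3 each), a difference of -3.69 ± 0.19 (adjusted p = 1.57e-08, limma). A second probe set gave -3.48 (adjusted p = 1.12e-06, limma), and the remaining one was near background. Plat and Serpini1 were thus both lower in mt-CCs. In fl-CCs + p53 R175H the same gene averaged 9.04, against 9.97 in fl-CCs + EV (difference -0.93 ± 0.19, adjusted p = 0.00407), and the second probe set did not pass (adjusted p = 0.0953). Serpinf2, antiplasmin, was at least 0.52 higher in fl-CCs + p53 R175H than in EV, where it was near background (adjusted p = 0.00137, limma).

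On the list of 20 genes of the tissue factor pathway, coagulation factors and anticoagulants, 2 were higher and 4 lower in mt-CCs than in fl-CCs (22.2% and 21.1% of all genes), and 8 were higher and 1 lower in fl-CCs + p53 R175H than in EV (15.3% and 15.1% of all genes). Of the 8, F13a1 and Fga were near background in both groups, and F8 averaged 4.98 in fl-CCs + p53 R175H and 4.34 in EV. The median difference of the list was -0.06 for mt-CCs minus fl-CCs (-0.01 over all genes) and 0.22 for p53 R175H minus EV (-0.03 over all genes). Thbd, thrombomodulin, which turns thrombin to the activation of protein C, read 8.75, 8.88 and 8.85 in mt-CCs, 8.55, 8.50 and 8.55 in fl-CCs + p53 R175H, 4.35, 4.73 and 4.76 in fl-CCs + EV and 6.20, 6.34 and 6.41 in fl-CCs. It was high in both groups with mutant p53 and near background with the empty vector, with differences of 2.51 ± 0.11 for mt-CCs minus fl-CCs (adjusted p = 4.14e-09, limma) and at least 3.53 for p53 R175H minus EV (adjusted p = 1.11e-09, limma). In fl-CCs + EV it was at least 1.32 lower than in fl-CCs (adjusted p = 2e-06, limma). Serpind1, heparin cofactor II, an inhibitor of thrombin, averaged 6.01 in mt-CCs, 8.74 in fl-CCs + p53 R175H, 6.30 in fl-CCs + EV and 7.83 in fl-CCs. It was lower in mt-CCs than in fl-CCs (difference -1.82 ± 0.17, adjusted p = 4.53e-06, limma) and higher in p53 R175H than in EV (2.44 ± 0.17, adjusted p = 1.42e-06), and the difference between these effects was -4.26 ± 0.24 (adjusted p = 7.52e-08).

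Pros1, protein S, a cofactor of activated protein C, rose in both settings, by 1.44 ± 0.10 in mt-CCs over fl-CCs (adjusted p = 4.4e-07, limma) and by 1.03 ± 0.10 in p53 R175H over EV (adjusted p = 2.95e-05). Proc, protein C itself, differed by -1.40 ± 0.19 (adjusted p = 0.000121, limma) and -1.36 ± 0.19 (adjusted p = 0.000357), lower with mutant p53 than in the group it was set against. It averaged 6.91 in mt-CCs, 8.59 in fl-CCs + p53 R175H, 9.95 in fl-CCs + EV and 8.31 in fl-CCs. The p53 R175H mean was thus below that of EV and not below that of the untransfected parent. Procr, the endothelial protein C receptor, averaged 11.04 in mt-CCs, 12.16 in fl-CCs + p53 R175H, 11.46 in fl-CCs + EV and 11.82 in fl-CCs. It was lower in mt-CCs than in fl-CCs (difference -0.78 ± 0.08, adjusted p = 8.03e-06, limma) and higher in p53 R175H than in EV (0.70 ± 0.08, adjusted p = 6.47e-05), with a difference between the effects of -1.48 ± 0.11 (adjusted p = 8.96e-07). Plasminogen itself (Plg), the partners of tissue factor F7 and F10, and its inhibitors Tfpi and Tfpi2 were near background in every array at every probe set, with values of 1.88 to 4.92. These 5 were named after their values were seen.

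**Figure D4:**
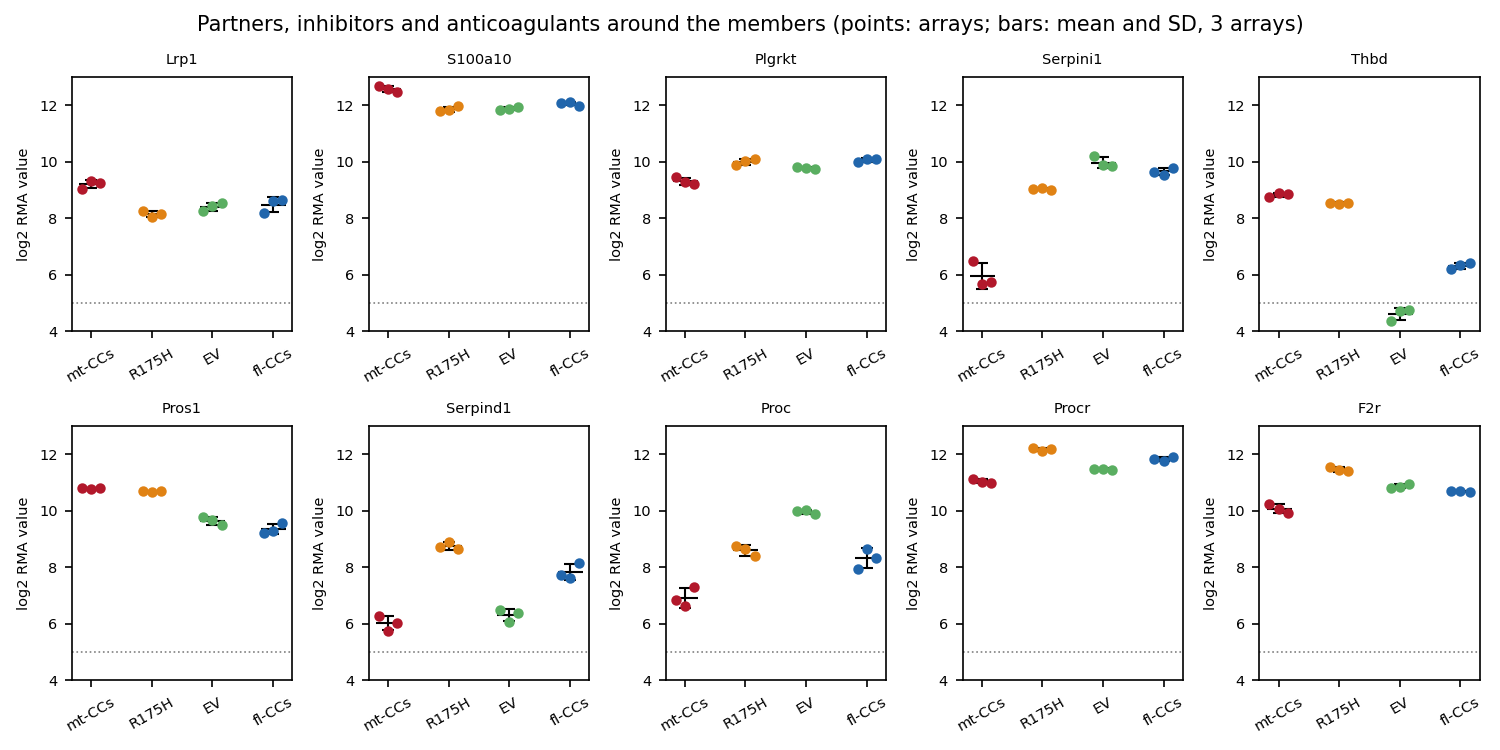
Log2 RMA values of Lrp1, S100a10, Plgrkt, Serpini1, Thbd, Pros1, Serpind1, Proc, Procr and F2r array by array in the 4 groups (each point is 1 array, bars give the mean with its SD, dotted line, the near-background level of 5). Thbd averages 8.83 in mt-CCs, 8.53 in fl-CCs + p53 R175H, 4.61 in fl-CCs + EV and 6.32 in fl-CCs.

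Of 3 measured protease-activated receptors, F2r, the thrombin receptor, was lower in mt-CCs than in fl-CCs (10.07 against 10.68, adjusted p = 0.000244, limma) and higher in fl-CCs + p53 R175H than in EV (11.46 against 10.86, adjusted p = 0.000703, limma). The other 2, F2rl2 and F2rl3, did not pass and were near background in the groups compared. Of 13 further clade B serpins, the family of Serpinb2, 3 were higher and 3 lower in mt-CCs than in fl-CCs, shares close to the 22.2% and 21.1% of all genes, and 1 was higher and 0 lower in p53 R175H than in EV, against 15.3% and 15.1% of all genes. Of the 3 higher in mt-CCs, Serpinb1b was near background in both groups. Serpinb8 averaged 7.19 in mt-CCs and 4.84 in fl-CCs, where 2 of the 3 arrays were near background (difference 2.35 ± 0.13, adjusted p = 3.06e-08, limma). Serpinb9b fell by 1.38 ± 0.11 in mt-CCs (adjusted p = 1.34e-06, limma), and Serpinb6a rose by 0.37 ± 0.08 (adjusted p = 0.00251). Serpinb5, maspin, was at least 0.42 lower in mt-CCs, where it was near background (adjusted p = 0.000592). The 2 probe sets of Serpinb9 disagreed, with -0.68 (adjusted p = 0.0025) and 0.41 (adjusted p = 0.0227). Serpinb6b was 0.78 ± 0.11 higher in p53 R175H than in EV (adjusted p = 0.000368, limma).

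The empty vector itself was compared with the parent cells on the same lists. In fl-CCs + EV against fl-CCs, 0 of 11 plasminogen, receptor and protease genes were higher and 1 was lower, and 0 of 5 inhibitors were higher and 1 was lower. On the coagulation list 1 of 20 was higher, Proc (difference 1.64 ± 0.19, adjusted p = 0.000177, limma), and 4 were lower, among them Serpind1 (-1.53 ± 0.17, adjusted p = 0.000124) and Procr (-0.36 ± 0.08, adjusted p = 0.00994). No protease-activated receptor passed, and 2 of 13 clade B serpins were higher and 0 lower, where 10.4% of all genes were higher and 9.2% lower. The median log2 differences of the lists for mt-CCs minus fl-CCs were -0.15 for plasminogen and its receptors, -0.0025 for the inhibitors, -0.15 for the protease-activated receptors and -0.0089 for the clade B serpins, against -0.014 over all genes. For p53 R175H minus EV the medians were -0.15, -0.083, 0.074 and 0.16 in the same order of lists, against -0.026 over all genes.

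Markers of other cells moved in part with these results. Over 12 fibroblast markers the summed linear signal was 1560 to 1620 in mt-CCs, 397 to 412 in fl-CCs + p53 R175H, 334 to 355 in fl-CCs + EV and 270 to 351 in fl-CCs. Of the 12, 6 were higher and 1 lower in mt-CCs than in fl-CCs, against 22.2% and 21.1% of all genes. Col3a1 was at least 4.50 higher (9.50 against 3.48), Col1a1 was 2.58 higher and Pdgfra 2.01 higher. Pdgfrb averaged 7.01 against 2.19 at one probe set and 7.37 against 6.11 at another. Col1a2 and Dcn were called higher at means of 4.67 and 4.96 in mt-CCs, and Acta2 was lower. Lum, Pdpn, Postn, Thy1 and Fap were near background in mt-CCs. Over 10 epithelial markers the sum was 32400 to 34700 in mt-CCs, 42900 to 43600 in fl-CCs + p53 R175H, 49400 to 51900 in fl-CCs + EV and 50200 to 53000 in fl-CCs, and 8 were lower in mt-CCs. The part of these markers in the differences of Plau, Plat, Plaur and F3 between mt-CCs and fl-CCs was not tested. Between fl-CCs + EV and fl-CCs the fibroblast sums overlapped, and 1 of 12 markers was higher, where 10.4% of all genes were. It was Pdgfra (difference 0.95 ± 0.16, adjusted p = 0.00196, limma). The part of these markers in the F3 difference between fl-CCs + EV and fl-CCs was not tested either. Of 10 macrophage and leukocyte markers, 6 were near background in every group, among them Ptprc, Adgre1 and Itgam. Cd68, a lysosomal protein of macrophages, averaged 7.66 in mt-CCs, 5.43 in fl-CCs + p53 R175H, 5.66 in fl-CCs + EV and 5.75 in fl-CCs, a rise in mt-CCs over fl-CCs like those of Plau and F3 (difference 1.91 ± 0.12, adjusted p = 1.48e-07, limma), and its part in those differences was not tested. The sum of the 10, in which Cd14 was the brightest with group means of 9.57 to 10.02, was 1130 to 1230 in mt-CCs, 1100 to 1330 in fl-CCs + p53 R175H, 950 to 979 in fl-CCs + EV and 1180 to 1220 in fl-CCs. Of 10 endothelial markers at least 8 were near background in each group, including Pecam1, Cdh5 and Vwf, with sums of 182 to 226 over all arrays. The acinar markers Cel, Prss2 and Ptf1a were near background in every group, and the 5 measured summed to 211 to 215 in mt-CCs, 217 to 252 in fl-CCs + p53 R175H, 234 to 266 in fl-CCs + EV and at most 193 in fl-CCs. Cela1 was above background, with means of 7.13 in mt-CCs, 7.25 in fl-CCs + p53 R175H, 7.40 in fl-CCs + EV and 6.93 in fl-CCs. It was higher in fl-CCs + EV than in fl-CCs (difference 0.46 ± 0.08, adjusted p = 0.00376, limma). Cpa1 lay close to the near-background level, with group means of 4.88 to 5.33.

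The genes closest in pattern to each member were ranked by Pearson's r over the 12 arrays, as a description, since the arrays fall into 4 groups and the r mostly follows the group means. Nearest to F3 was Il13ra1, a receptor subunit for interleukin 13 (r = 0.981), which averaged 7.97 in mt-CCs, 6.44 in fl-CCs + p53 R175H, 7.94 in fl-CCs + EV and 6.30 in fl-CCs, followed by Ccnt2 (0.973) and Frmd6 (0.97). Nearest to Plau were Hmgn3 (0.985), Man1c1 (0.985) and Nr2f1 (0.983). Nearest to Plat was Epas1, the transcription factor HIF-2α (0.983), with group means of 7.74 in mt-CCs, 8.66 in fl-CCs + p53 R175H, 8.42 in fl-CCs + EV and 9.41 in fl-CCs, then Car9, a carbonic anhydrase (0.973), and Rfk (0.97). Nearest to Plaur were 9230112J17Rik (0.986), B4galt6 (0.985) and Me1 (0.984). For Serpinb2, whose values are near background, the nearest were Mpp6 (0.908), Shroom4 (0.861) and Tmem106a (0.83).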

How the data were processed

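Labeled cDNA of the 12 cultures was hybridized to Affymetrix mouse expression arrays, and the authors ran RMA to normalize them and obtain 1 value per probe set. These deposited log2 values were used as they stand, and the genome build is not given in the sources used here. From them, 45037 probe sets remained once 64 AFFX controls had been removed. They entered 1 linear model of the 4 groups with 12 arrays, fitted in R 4.3.3 by lmFit and eBayes of limma 3.58.1, with Benjamini-Hochberg adjustment over all 45037 and a threshold of 0.05 with no fold limit. The study used Partek, whose model is not stated in its methods. Where every array of the dimmer group was under 5, the difference is given as at least the brighter mean minus 5, and none is given where both groups were. Gene names came from the array's platform annotation (34945 with 1 symbol, 932 with several, 9160 with none).

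The members and lists were chosen with earlier results of these data known. The genes named are every member, up to 3 rising and 3 falling called genes of each list in each main comparison whose groups did not overlap and were not both near background, and for each member the 3 genes with the highest r among probe sets with an SD of at least 0.3. Some items of the design are not reported here. Settings tried otherwise were each array left out in turn, only the arrays compared, a replicate block, no moderation, weighted arrays, a trend of the variance with intensity, only probe sets of a mean of at least 5, control probe sets kept, arrays centred on their medians and another probe set per gene. The procedure was tested on simulated arrays. Arrays give no read depth, so their number limits the precision.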

Additional observations from a re-analysis of the deposited data

Results flagged for a closer look

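The effects were the differences that went with mutant p53 in the tumor lines (mt-CCs minus fl-CCs) and in the transfected cells (p53 R175H minus EV). They differed in a test of the difference itself for 6 of 7 member probe sets, where 26.8% of all probe sets were called. In the tumor lines the p53 allele and the line cannot be told apart, nor can the mutant and the transfected population in the transfected cells. The difference between the effects on the log2 scale was 3.16 ± 0.21 (SE) for F3 (adjusted p = 2.57e-07, limma). It was 2.37 ± 0.34 for Plau at 1422138_at and 2.57 ± 0.19 at 1422139_at. For Plat it was -1.40 ± 0.17 at 1415806_at and -1.08 ± 0.17 at 1458553_at, and for Plaur it was -0.62 ± 0.12. In F3 and Plau the tumor lines differed upward and the transfected cells downward. In F3 the mt-CCs were 1.73 above fl-CCs, p53 R175H was -1.43 against EV, and EV was 1.62 above fl-CCs.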

How the results depend on the processing

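Over 549 alternative values of the member tests, 536 kept their direction and side of the threshold, 10 lost the call, 2 gained one and 1 changed sign. F3 kept its calls throughout, with 1.67 to 1.80 for mt-CCs minus fl-CCs, -1.63 to -1.31 for p53 R175H minus EV and 1.59 to 1.67 for EV minus fl-CCs, as did Plau at 1422139_at and Plat wherever they were called. Plaur in EV minus fl-CCs, which did not pass, ran from -0.018 (without EV replicate 2) to 0.094 without single arrays. With only the arrays of the groups compared, 2 member probe sets instead of 4 were lower in p53 R175H, since Plau at 1422138_at (adjusted p = 0.0853, limma) and Plaur (adjusted p = 0.0634) were lost, and without single arrays the count ran from 2 to 4. Without moderation Plau at 1422138_at was also lost (adjusted p = 0.0647). Array weights gave Serpinb2 a call in the difference of effects (adjusted p = 0.0495), near background. Of the genes on the 5 pathway lists, 11 were higher in p53 R175H than in EV, and 7 with probe sets of a mean of at least 5. In EV minus fl-CCs 3 were higher, and 5 with that filter, and 6 were lower, with 3 to 6 without single arrays and the 3 without EV replicate 2. In the difference of effects 4 were higher, and 2 with the highest-mean probe set per gene, and 3 to 6 without single arrays. The cause of these shifts was not tested. With the replicate block, the member counts were unchanged at 3 higher and 3 lower for mt-CCs minus fl-CCs, 0 and 4 for p53 R175H minus EV and 2 and 2 for EV minus fl-CCs, and of all probe sets 6689 were higher and 6599 lower in mt-CCs, against 6937 and 6875 without the block. The labels do not say that a number marks a shared culture, same-number arrays had deviations correlated at -0.09 to 0.06 with 0 of 18 pairs over 0.1, and 3 of 12 arrays correlated best with their own number. Signal limits Serpinb2 and Plat at 1458553_at, which lie at or close to background. With only probe sets of a mean of at least 5, Serpinb2 was not tested.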
